A study of Mus musculus with 9 samples.

Results

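The 6 genes described here are Nr4a1, Nr4a2 and Nr4a3, which encode the 3 members of a nuclear receptor family, and Ier2, Ier3 and Ier5, which are named as immediate early response genes. They were chosen by symbol, with earlier results of these data known. All 6 of 6 were found among the 23205 gene symbols of the deposited transcript table. The study used mouse NIH3T3 fibroblasts, an established line, carrying the transgenes Phy-mCherry-CAAX and YFP-PIF-SOS2cat. These make up OptoSOS, in which light recruits the catalytic domain of SOS2, an exchange factor that switches Ras on, to the cell membrane. Per the labels, 1 library each was made at 30, 60 and 120 min after PDGF at 100 ng/mL. There was also 1 library each at 30, 60 and 120 min "post-light stimulation", and 3 libraries were from unstimulated cells at 0 min. All cells, the unstimulated ones included, carried both transgenes, had been kept overnight in medium without serum and had received 10 µM phycocyanobilin, the light-absorbing cofactor of the switch. Only polyadenylated RNA was sequenced.

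The table has 12 columns of values, 3 more than the 9 labelled samples, and identifies each only by a running number. No column was therefore assigned to a treatment, a time or a replicate, and no stimulated sample was compared with an unstimulated one. The values below are levels in columns 1 to 12, and the numbers are names that carry no order. Whether the columns are separate cultures was not given in the sources used here, so no test was made and no p-value is reported. Levels are in FPKM, fragments scaled by the length of the transcript and by the mapped fragments of the column, summed over the accessions of a gene. In RNA from whole cultures, a lower level through fewer cells with the transcript and one through less transcript per cell cannot be told apart.

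Immediate early genes are transcribed within minutes of a mitogen without new protein synthesis, from factors already present in the cell, among them SRF with its Elk partners and CREB. ERK, the last kinase of the Ras cascade, acts on these factors, and many of the transcripts decay quickly. Nr4a1, Nr4a2 and Nr4a3 encode Nur77, Nurr1 and NOR-1, orphan nuclear receptors that are controlled largely through the amount of protein made and that can bind DNA as monomers. Ier2 encodes a small nuclear protein, Ier3 a protein (also known as IEX-1) linked to cell survival and ERK signalling, and Ier5 a partner of protein phosphatase 2A that acts on the heat shock factor HSF1.

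The promoters are shown because all 3 Nr4a sequences held repeats of the core of the cAMP response element, the site that CREB-type factors bind. RefSeq's table for GRCm38.p6 had an entry for 5 of the 6 genes, Ier2 being the one without. Each sequence below is the 250 bases before the annotated start, 5′ to 3′ on the gene's strand. Capitals mark the CRE core (TGACG, or CGTCA where it lies on the other strand) in the Nr4a genes and the CCAAT motif (ATTGG on the other strand) in Ier3 and Ier5. The Nr4a1 sequence lies at chr15:101266596-101266845 on the plus strand, that of Nr4a2 at chr2:57124004-57124253 on the minus strand and that of Nr4a3 at chr4:48045055-48045304 on the plus strand. The Ier3 sequence lies at chr17:35821463-35821712 on the plus strand and that of Ier5 at chr1:155099637-155099886 on the minus strand.
Nr4a1: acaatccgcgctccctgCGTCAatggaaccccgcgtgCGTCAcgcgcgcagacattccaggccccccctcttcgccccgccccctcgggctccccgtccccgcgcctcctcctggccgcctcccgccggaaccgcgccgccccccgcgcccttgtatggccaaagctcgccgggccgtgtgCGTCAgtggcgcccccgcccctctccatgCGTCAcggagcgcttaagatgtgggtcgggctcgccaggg
Nr4a2: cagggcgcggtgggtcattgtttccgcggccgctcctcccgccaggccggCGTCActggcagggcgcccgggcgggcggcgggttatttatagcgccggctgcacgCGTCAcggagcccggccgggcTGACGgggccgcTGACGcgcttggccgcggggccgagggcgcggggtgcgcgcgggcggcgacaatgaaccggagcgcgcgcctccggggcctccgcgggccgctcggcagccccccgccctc
Nr4a3: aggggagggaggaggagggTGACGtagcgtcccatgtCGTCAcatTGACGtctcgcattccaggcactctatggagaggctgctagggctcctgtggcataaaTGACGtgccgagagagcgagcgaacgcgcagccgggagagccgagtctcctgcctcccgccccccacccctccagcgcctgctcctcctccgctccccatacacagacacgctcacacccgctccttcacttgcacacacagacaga
Ier3: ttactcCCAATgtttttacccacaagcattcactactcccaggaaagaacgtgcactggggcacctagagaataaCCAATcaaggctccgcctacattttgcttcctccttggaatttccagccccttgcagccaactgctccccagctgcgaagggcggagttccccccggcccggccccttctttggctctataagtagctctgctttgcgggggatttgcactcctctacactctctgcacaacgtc
Ier5: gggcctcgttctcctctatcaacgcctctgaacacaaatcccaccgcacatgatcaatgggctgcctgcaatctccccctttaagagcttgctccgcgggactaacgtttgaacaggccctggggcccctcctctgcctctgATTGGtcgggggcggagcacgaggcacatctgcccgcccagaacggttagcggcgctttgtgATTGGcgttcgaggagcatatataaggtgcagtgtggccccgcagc

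Each of the 3 Nr4a promoters held 4 matches to the CRE core on either strand, and the Ier3 and Ier5 promoters held 0. Among all 32851 promoters of the table, 17.8% held at least 1 match in the same window. The share with 4 matches is not reported here. Counted back from the start, the matches began at positions -233, -213, -69 and -40 in Nr4a1. In Nr4a2 they began at -200, -144, -123 and -111, and in Nr4a3 at -231, -213, -205 and -147. The full palindrome TGACGTCA, which would count as 2 overlapping cores, was in none of the 5 windows and in 1.55% of all promoters. The CCAAT motif had 2 matches each in Ier3 and Ier5, 0 in the Nr4a genes, and at least 1 in 33.8% of all promoters. The GC box GGGCGG on either strand was in all 5 windows and in 32.7% of all promoters. The AP-1 site TGANTCA and the CArG box, to which SRF binds, had no match in these 5 windows and stood in 6.75% and 1.47% of all promoters. The CArG box was searched as CCWWWWWWGG, with W for A or T, and looser forms were not searched. These motifs were chosen with the sequences in view, and a match is a description of letters, not a binding site.

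Nr4a1 had the widest spread of the 6 genes. Its level was lowest in column 9, at 6.39 FPKM, had a median of 95.6 FPKM over the 12 columns and was highest in column 3, at 437 FPKM. Columns 2, 7, 10 and 6 followed column 3 with 389, 340, 264 and 250 FPKM. Columns 11 and 4 were intermediate, at 101 and 89.8 FPKM, and column 8 had 29.5 FPKM. The low end held columns 12, 1, 5 and 9, at 12.9, 8.03, 7.61 and 6.39 FPKM. The highest column was 59.3 times the lowest, a ratio here taken on FPKM + 1. With columns rescaled to a common sum, column 1 was the lowest.

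Nr4a3 covered a lower range with the same highest column. It had 1.04 FPKM in column 1, a median of 11.5 FPKM, and 32.4 FPKM in column 3, and its ratio was 16.4. The ratio became 26.6 with columns rescaled to a common sum and 28.5 with a pseudocount of 0.1 FPKM. With columns rescaled by the median ratio over genes it was 17.4. The next levels were alike, 18.7 FPKM in column 11, 18.6 in column 7, 13.96 in column 2, 13.5 in column 6 and 13.4 in column 10. Column 11 thus stood second for Nr4a3 and sixth for Nr4a1. Columns 1, 5, 9 and 12 were again the low ones, between 1.04 and 1.93 FPKM. The deposited model of Nr4a3 is 1884 bases long, which equals the coding length of the same accession in GENCODE M21 with its stop codon, while that annotation's whole transcript has 5720 bases. Its FPKM is therefore a level per base of coding sequence.

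Nr4a2 varied least among the 3 receptors. It ran from 5.94 FPKM in column 8 through a median of 12.7 FPKM to 42.4 FPKM in column 3, a ratio of 6.25. Column 2 was near the top, at 33.9 FPKM, and the next column, 7, had 16.5 FPKM. The 5 lowest columns, 8, 9, 1, 5 and 12, lay close together, between 5.94 and 7.90 FPKM. Which of them was lowest depended on scaling, since rescaling every column to the same sum made column 1 the lowest. RefSeq also lists an uncharacterised locus over the first exon of Nr4a2, and whether the counting used strand is not given in the sources used here.

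Nr4a2 was the one member with more than 1 accession, and most of its level was under NM_001139509. The accession NM_013613 made up a median of 15.4% of the gene's FPKM. Its share was between 13.3% and 20.0% in 10 columns, 34.3% in column 6 and 0% in column 1. In column 6 it had 5.07 FPKM beside 9.73 FPKM of NM_001139509. In column 1, the shallowest, it was listed at 0 FPKM with a deposited upper bound of 0.0368 FPKM, while NM_001139509 had 7.21 FPKM. In GENCODE M21 the accessions share 7 exons and all 6 coding parts, and each has its own non-coding first exon, of 321 bases in NM_013613 and 175 bases in NM_001139509. Those first exons start 8965 bases apart, and their difference in length equals the 146 bases by which the deposited models differ. In that annotation the accessions code for the same protein and differ in the first exon alone. The shares therefore rest on reads that reach those first exons, in deposited models of 3172 and 3026 bases. How many reads told the accessions apart in column 1 or column 6 was not examined. The promoter printed above is that of NM_001139509. Nr4a1 and Nr4a3 each had 1 accession, NM_010444 and NM_015743, with 100% of the level in every column.

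**Figure D1:**
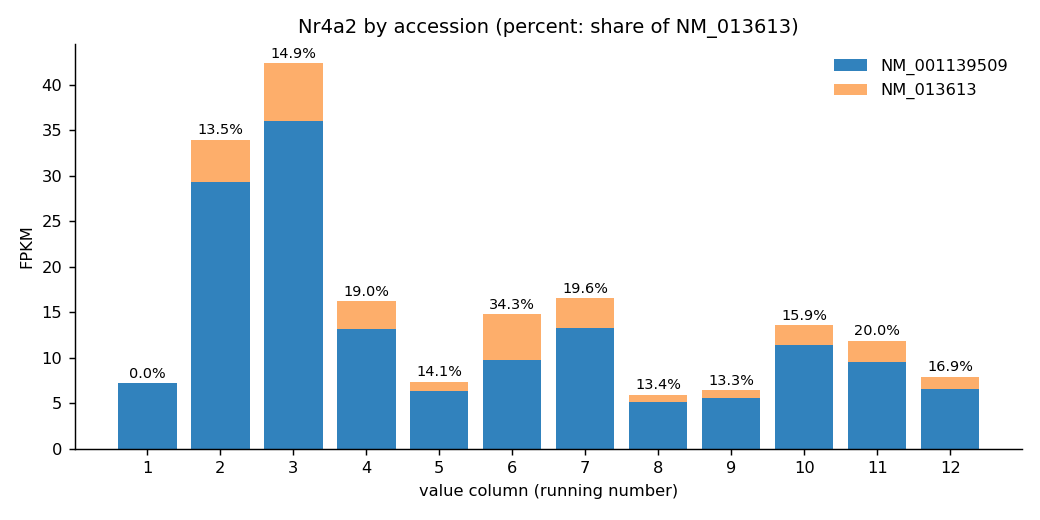
Level of Nr4a2 in FPKM (vertical axis) in each of the 12 value columns (horizontal axis), stacked by accession, with the share of NM_013613 printed above each bar. The share is 34.3% in column 6, 0% in column 1 and between 13.3% and 20.0% elsewhere.

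Ier2 stood apart in 3 columns. Columns 2, 6 and 10 had 238, 231 and 198 FPKM, and the next levels were 64.8 FPKM in column 7 and 61.1 FPKM in column 3. Columns 8 and 4 had 27.0 and 25.3 FPKM, around the median of 26.2 FPKM. The other 5 columns lay between 5.91 FPKM in column 9 and 11.5 FPKM in column 11. The ratio of highest to lowest was 34.6. Columns 2 and 6 differed by little, and rescaling the columns to a common sum made column 6 the highest and column 5 the lowest, as did rescaling by the median ratio over genes.

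Ier3 had the highest level of the 6 genes in 10 of the 12 columns, Nr4a1 being higher in columns 3 and 11. In column 2 the call was close, at 398 FPKM for Ier3 and 389 FPKM for Nr4a1. The deposited intervals there stood in the other order, 321 to 335 FPKM for Ier3 and 355 to 365 FPKM for Nr4a1. It ran from 21.3 FPKM in column 9 through a median of 165 FPKM to 472 FPKM in column 6, a ratio of 21.2. Columns 10, 7, 2 and 3 followed with 457, 418, 398 and 304 FPKM, and columns 8 and 4 had 192 and 138 FPKM. After these came a gap, with the remaining 5 columns between 21.3 and 32.2 FPKM. Column 11, at 31.7 FPKM, was inside that low cluster, although it was intermediate or high for the Nr4a genes.

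Ier5 had a narrower range, from 7.89 FPKM in column 12 through a median of 20.2 FPKM to 63.6 FPKM in column 7, a ratio of 7.27. Columns 10, 6 and 3 had 38.4, 35.8 and 34.8 FPKM. Column 2, among the 4 highest for each of the other 5 genes, was seventh for Ier5 at 19.3 FPKM. In column 7, where Ier5 was highest, Ier2 was at 64.8 FPKM.

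**Figure D2:**
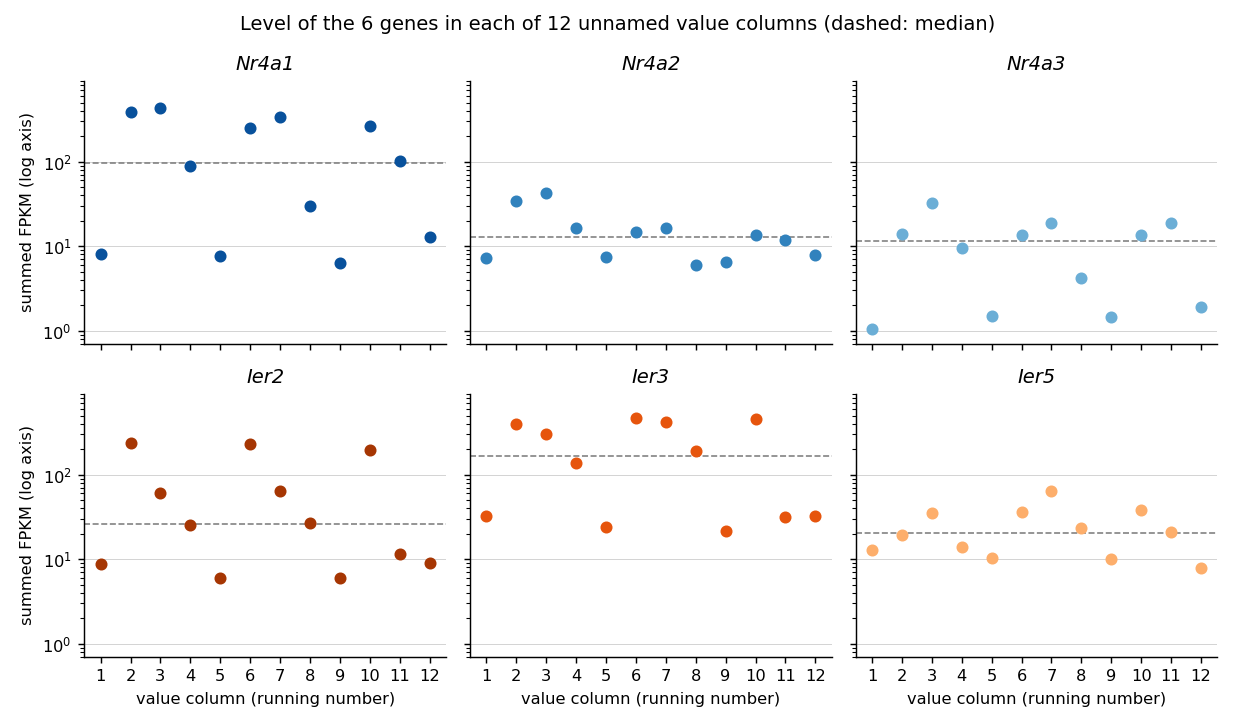
Summed FPKM of each gene (vertical log axis) in each of the 12 value columns (horizontal axis, running numbers without sample names), with a dashed line at the gene's median. Nr4a1 spans 6.39 to 437 FPKM and Ier3 21.3 to 472 FPKM, while Nr4a2 stays between 5.94 and 42.4 FPKM.

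By median level the order was Ier3, Nr4a1, Ier2, Ier5, Nr4a2 and Nr4a3. The ranges of all neighbours in this order overlapped. Ier3 was above Nr4a1 in 10 of 12 columns and Nr4a1 above Ier2 in 11, whereas Ier2 was above Ier5, and Ier5 above Nr4a2, in 8 columns each. By the deposited intervals, column 2 would go the other way for Ier3 and Nr4a1. Nr4a2 was above Nr4a3 in 10 columns, the exceptions being 7 and 11. These comparisons are per base of the deposited model, which for Nr4a3 is the coding sequence.

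A spread of this size was uncommon in the table. Of 10543 genes with a mean of at least 1 FPKM over the 12 columns, 374 had a highest column at least 5 times the lowest, which is 3.55%. All 6 members did, and the median of their ratios was 18.8, against 1.63 over all 10543 genes. Because the members were chosen with earlier results of these data known, this count describes them and is not independent support. Each member was above 1 FPKM even in its lowest column, so none passed the minimum through its high columns alone. Ranked by ratio among the 10543 genes, Nr4a1 was at place 56, Ier2 at 102, Ier3 at 153, Nr4a3 at 192, Ier5 at 294 and Nr4a2 at 317. This order depended on the setting: with columns rescaled to a common sum the ratio of Nr4a3 was 26.6 beside 21.2 for Ier3, and that of Nr4a2 was 7.08 beside 6.64 for Ier5. With a pseudocount of 0.1 FPKM, Nr4a3 was again above Ier3, at 28.5 beside 22.1. The 5-fold size is the one that the series' design text uses for induction, but a ratio over unnamed columns is not an induction.

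**Figure D3:**
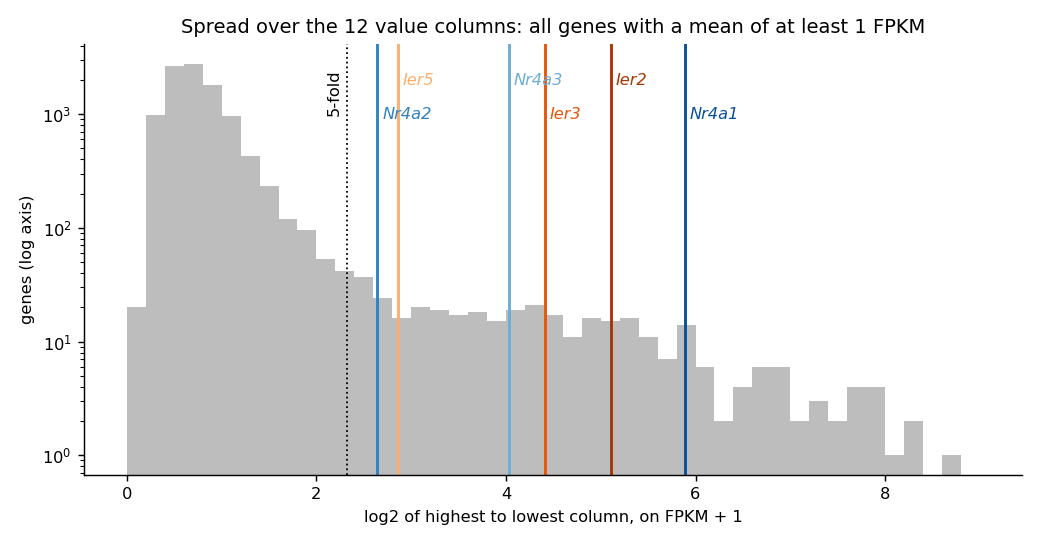
Number of genes (vertical log axis) by the log2 ratio of their highest to their lowest column on FPKM + 1 (horizontal axis), for the 10543 genes with a mean of at least 1 FPKM, with a dotted line at 5-fold and coloured lines at the 6 members. All 6 lie to the right of the 5-fold line, from 2.64 for Nr4a2 to 5.89 for Nr4a1 on the log2 scale.

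The 6 genes varied over the columns in related but not identical ways. Over the 12 columns, the 15 pairs had Pearson correlations of log2(FPKM + 1) between 0.52 and 0.96, with a median of 0.82, and Spearman correlations between 0.50 and 0.93. These describe 12 points from 1 table that may not be independent samples, and no p is given. The closest pairs were Nr4a1 with Nr4a3 (r = 0.96, rho = 0.90) and Ier2 with Ier3 (r = 0.94, rho = 0.93). Nr4a2 with Ier5 was the least alike (r = 0.52, rho = 0.50). Without the 2 columns farthest from the first gene's median, the 15 correlations lay between 0.62 and 0.96, and that of Nr4a2 with Ier5 became 0.66. Relative to each gene's own median on the log2(FPKM + 1) scale, column 11 had Nr4a3 at 0.67, Ier3 at -2.32 and Ier2 at -1.12. In column 8 the receptors were the lower ones, with Nr4a1 at -1.66, Nr4a3 at -1.25 and Nr4a2 at -0.98, beside Ier3 at 0.24 and Ier5 at 0.20.

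**Figure D4:**
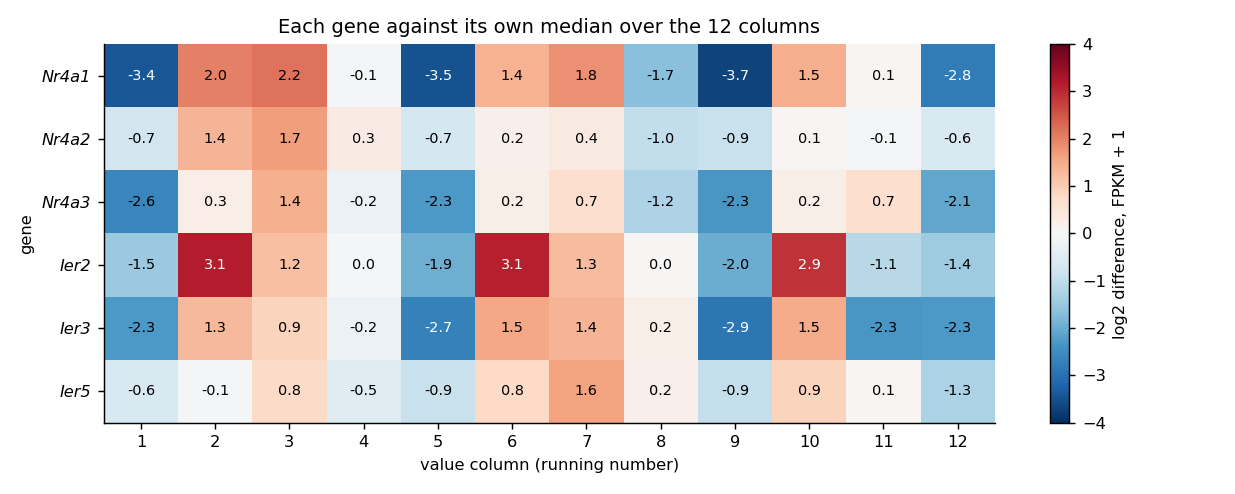
Difference of each gene (rows) from its own median over the columns, on the log2(FPKM + 1) scale (colour and printed value), in each of the 12 value columns. Columns 1, 5, 9 and 12 are below the median for all 6 genes, columns 3, 6, 7 and 10 above it for all 6, and columns 2, 4, 8 and 11 are above it for some genes and below it for others.

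The ratio of 2 genes within a column is free of any scaling of that column and shows the same differences. Nr4a2 was at 1.01 times Nr4a1 in column 9, at 0.97 times in column 5 and at 0.90 times in column 1, but at 0.0486 times in column 7. In columns 2 and 3, where both genes were highest, Nr4a2 was at 0.0872 and 0.0968 times Nr4a1. Nr4a3 against Nr4a2 ran from 0.144 in column 1 to 1.57 in column 11. Ier2 against Ier3 was highest in columns 2, 6 and 10, at 0.597, 0.490 and 0.434, and lowest in column 8, at 0.141. Ier3 against Nr4a3 covered the widest span of these 4 ratios, from 1.70 in column 11 to 45.7 in column 8, with a median of 19.5. Column 11 was apart from the rest in this ratio, since the next lowest, column 3, had 9.38. Among other ratios taken, Ier2 against Nr4a3 spanned slightly more, from 0.614 in column 11 to 17.0 in column 6.

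**Figure D5:**
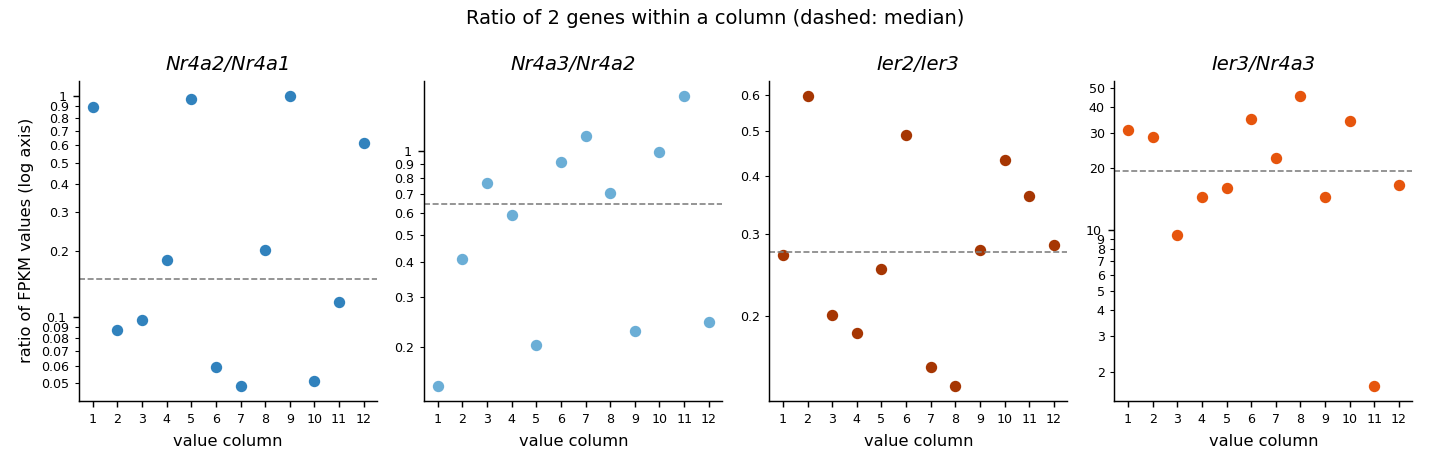
Ratio of the FPKM of 2 genes within each value column (vertical log axis, own scale in each panel), with a dashed line at the median over the 12 columns. Ier3/Nr4a3 is 1.70 in column 11, and Nr4a2/Nr4a1 is near 1 in columns 1, 5 and 9.

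Other genes followed each member closely over the 12 columns, and those named here are among the 3 with the highest Pearson correlation of log2(FPKM + 1) for each. Nr4a1 was most like Atf3, a stress-inducible transcription factor gene (r = 0.97, 0.395 to 22.8 FPKM), followed by the zinc finger factor gene Egr3 and the Hsp40 chaperone gene Dnajb1 (both 0.97). Nr4a3 was most like Nr4a1 (0.96), and the clock gene Per1 was also among its 3 closest genes (0.95). Ier2 was most like Fos, the AP-1 subunit gene (0.98, 0.202 to 145 FPKM), Zfp36, which encodes an mRNA decay factor (0.98), and Egr2 (0.98). Each of these 3 ranged over more than 5-fold, as did Ier2.

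Nr4a2 was most like Maml1, which encodes a Notch coactivator (r = 0.97, 8.07 to 12.4 FPKM). The thrombin receptor gene F2r (0.92) ran from 46.7 to 60.0 FPKM. The matrix glycoprotein gene Thbs1 (0.93) ran from 27.0 to 220 FPKM. Ier3 was most like Mir22hg, the host transcript of a microRNA (0.97), Egr2 (0.96) and the chemokine gene Cxcl1 (0.96), the last at no more than 2.24 FPKM. Ier5 was most like Mdm2, which encodes the ubiquitin ligase of p53 (0.98, 18.6 to 65.4 FPKM), Tiparp, a target gene of the aryl hydrocarbon receptor (0.97), and Zfand2a, a heat-shock-inducible zinc finger gene (0.96). Leaving out any 1 column kept these correlations at 0.889 or higher. For each member they are the highest among all the other genes of the 10543, so they were selected for being high.

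Among 17 other immediate early transcription factor genes and effectors, 16 had a mean of at least 1 FPKM and 15 of these had a ratio of at least 5, with a median ratio of 11.6. The largest was that of Egr1, from 5.28 to 823 FPKM, and the smallest that of Srf, from 6.01 to 16.8 FPKM. Egr4 was under the minimum, at 0 to 1.55 FPKM. In this list 6 genes were under 1 FPKM in their lowest column, so some passed the minimum through their high columns. Of 12 feedback genes of mitogen signalling, 10 passed the minimum and 8 had a ratio of at least 5. The largest ratio was that of the ERK phosphatase gene Dusp5 (1.70 to 114 FPKM) and the smallest that of Spred1, which did not reach 5 (21.1 to 71.9 FPKM). Dusp2 and Spry1 were under the minimum, with highest columns of 0.0386 and 1.22 FPKM. Over all 10543 genes, 3.55% had a ratio of at least 5, and the median ratio was 1.63. Both lists were chosen with earlier results of these data known.

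The genes for the factors upstream and for the partners of the members varied about as much as the genes of the table at large. None of 11 genes for Elk, CREB, MEF2 and MRTF factors had a ratio of at least 5, and their median ratio was 1.69. Elk1, which encodes an ERK-regulated partner of SRF, was at 4.01 to 4.99 FPKM, and Mef2c had the largest ratio in the list at 0.866 to 4.69 FPKM. Of 7 receptor partners and relatives of the Nr4a proteins, 6 passed the minimum and 0 had a ratio of at least 5. The glucocorticoid receptor gene Nr3c1 was at 10.3 to 13.8 FPKM, the orphan receptor gene Nr2f1 at 14.1 to 51.6 FPKM, and Rxrg, under the minimum, at no more than 0.114 FPKM. Of 6 relatives and partners of the Ier genes, 0 had a ratio of at least 5, from the phosphatase 2A catalytic gene Ppp2ca (115 to 159 FPKM) to the survival gene Mcl1 (27.8 to 90.3 FPKM). The median ratios of the receptor list and the Ier list were 1.79 and 1.58, beside 1.63 over all genes. Over all genes 3.55% had a ratio of at least 5, so lists this short would hold few or none. The counts of 0 are near that share and mark nothing particular to these genes.

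The columns differed in depth and in scale. Coverage divided by FPKM, which is proportional to the fragments behind a column, ran from 0.929 in column 1 to 3.02 in column 8, a 3.25-fold span. Column 1 also had the highest sum of FPKM, 545360, against 382402 in column 9. Of 10 housekeeping genes 0 had a ratio of at least 5, and Tbp, which encodes the TATA-binding protein, had the smallest (11.7 to 15.004 FPKM). All 10 fibroblast markers passed the minimum, and their summed level was 4017 to 5544 FPKM. Vim, a cytoskeletal marker of fibroblasts, was at 2243 to 3203 FPKM, and the PDGF receptor gene Pdgfrb, with the largest ratio of that list, at 11.3 to 38.5 FPKM. Of 12 markers of other cell types, 8 were under 0.1 FPKM in every column, Cd68 and Tubb3 passed the minimum, and the list summed to 7.73 to 13.6 FPKM. Over all 30273 transcripts, the 66 pairs of columns had Pearson correlations of log2(FPKM + 1) between 0.95 and 0.98. The part of depth in the members' spread was not tested.

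The deposited intervals bound the precision only in part. Of the 84 member values by accession, 34 stood above their own upper bound and 0 below their lower bound. For Ier3 this was so in all 12 columns, for Nr4a1 in 8, Ier2 in 7, Ier5 in 5 and Nr4a3 in 2, and for neither Nr4a2 accession in any. For Nr4a3 in column 1, which had the lowest coverage among the members with a level above 0 (0.970 reads per base), the interval was 0.668 to 1.39 FPKM around 1.04 FPKM. For Nr4a1 in column 3 it was 399 to 410 FPKM, beside a deposited level of 437 FPKM. The spread over the columns was larger than these intervals for every member.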

How the data were processed

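Total RNA (TRIzol) went into TruSeq libraries, per the labels' protocols. Bowtie, TopHat, Cufflinks and the build mm9 were used, per the submitters' processing notes, with no version or setting given in the sources used here. The authors deposited 1 table without a header, and each of its 12 value columns packs FPKM, an interval, coverage and length into 1 cell, which was read as the layout of a Cuffcompare tracking file from the values themselves. Number of columns that match no sample and were used without assignment: 12. Absolute depth is unknown.

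FPKM was summed per symbol. Of all cells, 588 held several records, which were summed, and none of them was a member's. The highest-to-lowest ratio used a pseudocount of 1 FPKM and genes with a mean of at least 1 FPKM. The named genes are the members, their 3 most correlated genes and, from each list, the largest and smallest ratio and genes under the minimum. Some genes below the minimum in the marker list are given as a count, and 2 genes that this rule names are not reported here. The steps were tested on simulated data. Promoters came from RefSeq (GRCm38.p6) and exons from GENCODE M21, another build than the authors' mm9. Python 3.11.15, numpy 2.4.6, pandas 2.3.3 and matplotlib 3.10.9 were used. The members and lists were chosen with earlier results of these data known. Alternatives concerned scaling, pseudocount, minimum, accessions, interval bounds and left-out columns.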

Additional observations from a re-analysis of the deposited data

How the results depend on the processing

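Of 90 alternative values, 86 were within 1.5 times the reported one. Some of the 90 could not differ, so this count is not a measure of robustness. Keeping only complete transcript matches removed no member line, and every member but Nr4a2 had a single accession. The minimum on the gene sum removed no column from the accession shares. The count of 374 genes with a ratio of at least 5 became 248 with a mean of at least 5 FPKM and 2304 with a ratio of at least 2. All 6 members were in the count under every setting run. Dropping the minimum, lowering the ratio to 2 or lowering the pseudocount to 0.1 FPKM could not remove any. Leaving out column 1 could lower the ratio of Nr4a3 alone. The ratio of Nr4a3 became 26.6 with columns rescaled to the same sum and 28.5 with a pseudocount of 0.1 FPKM. With columns rescaled by the median ratio over genes, the ratio of Nr4a3 was 17.4. Its lowest level, in column 1, is close to the pseudocount. The median correlation between members lay between 0.78 and 0.86 when each column was left out in turn. Leaving out column 1, an alternative chosen after seeing the data, gave 359 genes with a ratio of at least 5. Without sample names for the columns, no spread between replicates could be set beside these values. No paired analysis was possible because no column was matched to a sample and no test was made.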
